A study of Homo sapiens with 12 samples.

Results

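Integrins are the receptors with which cells hold on to the extracellular matrix. The 10 integrin genes described here were taken by name: 5 α subunits (ITGA2, ITGA3, ITGA5, ITGA6 and ITGAV) and 5 β subunits (ITGB1, ITGB4, ITGB5, ITGB6 and ITGB8). They are 10 of the 55765 gene symbols in the count tables, and all 10 were among the 17727 genes with enough reads to be tested. Their mRNA was measured by RNA-seq in T47D cells, an established luminal breast cancer line that carries estrogen and progesterone receptors. No protein was measured.

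The series asked whether PRMT1, the main enzyme that adds asymmetric dimethyl groups to arginine in cells, is needed when progestin changes gene expression. T47D cells carried siCT, a nonspecific control siRNA, or siPRMT1, an siRNA to PRMT1 that lowers its mRNA and does not delete the gene. They were then given 10 nM R5020, a synthetic progestin, or the same volume of its ethanol vehicle, and the treatment label gives 6 h for both. The sample titles instead call the ethanol groups T0. Each siRNA with each treatment makes 4 groups, and each group has 3 libraries described as biological replicates. All cells were of the single line T47D and grew in RPMI with insulin and fetal bovine serum, so the growth medium described held serum. The sources used here do not say whether replicates came from separate cultures, so p-values measure only how these libraries vary, which may be technical.

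An integrin is a pair of 1 α and 1 β chain, and the pair decides the ligand. ITGA2 with ITGB1 binds collagen, ITGA3 or ITGA6 with ITGB1 binds laminin, and ITGA5 with ITGB1 binds fibronectin. ITGA6 also pairs with ITGB4, the chain with a long cytoplasmic tail that anchors epithelial cells to the basement membrane through hemidesmosomes. ITGAV pairs with several β chains, ITGB5, ITGB6 and ITGB8 among them, and the pairs with ITGB6 and ITGB8 are known for binding the latent form of TGF-β and releasing it.

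Libraries held between 26783525 and 34120937 counts. The siRNA target checked the labels: PRMT1 stood at 29.7 to 50.7 CPM (read counts scaled to a common library size with TMM factors) in the 6 siCT libraries and at 6.89 to 8.38 CPM in the 6 siPRMT1 libraries. All 8 luminal markers were detected in each group, with summed levels of 5166 to 9541 CPM in siCT and 10825 to 15226 CPM in siPRMT1. The keratins KRT18, KRT19 and KRT8 gave most of this sum, with 1855770, 751706 and 598168 counts over all 12 libraries. The remaining markers had 29622 (EPCAM) to 295064 (GATA3) counts, so the sum does not describe each of the 8. The 6 markers of basal and myoepithelial cells summed to 35.7 to 59.5 CPM in siCT and 9.23 to 11.8 CPM in siPRMT1, most of it from ACTA2, while KRT14 and KRT17 stayed at or below 0.109 CPM in all 12 libraries. Markers of leukocytes summed to at most 2.3 CPM, and the 3 endothelial markers in the tables to at most 0.157 CPM. The fibroblast list summed to 30.6 to 81.3 CPM through COL1A1, with COL1A2 at or below 0.0327 CPM. In bulk RNA, fewer cells of a type and less RNA per cell cannot be told apart.

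A pair of siCT libraries stood apart. In siCT ethanol replicate 3, 59.3% of the counts were mitochondrial transcripts, and in siCT R5020 replicate 1, 52.4% were. The share was 31.3% to 38.3% in the remaining 10 libraries. All 10 integrin genes were highest of their group in each of these libraries, which 39.8% and 42.1% of all tested genes were. The members lay a median of 1.06 and 0.66 above the mean of the other libraries of the group on the log2 scale, against -0.03 and -0.04 for all tested genes. What the high mitochondrial share and these high values do to the results was not tested beyond leaving the pair out. Fold changes from a fit without this pair, which leaves 10 libraries, are therefore given beside those of the members and of the named genes of the lists.

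The level of each gene in each library came first. Per kilobase of annotated exon, ITGB1, the β chain shared by most of the family, was the most abundant subunit in all 4 groups, at 21.0 ± 9.62 CPM per kb (SD, n = 3) in siCT ethanol and 14.3 ± 0.944 CPM per kb in siPRMT1 ethanol. In siCT ethanol the mean order went on with ITGA5 at 11.3, ITGB4 at 9.16, ITGAV at 8.62, ITGA3 at 6.54, ITGA2 at 5.86, ITGB5 at 4.18, ITGA6 at 2.97, ITGB6 at 1.23 and ITGB8 at 0.317 CPM per kb. The spread between these 3 libraries was wide, and of the neighbours in that order only ITGB6 and ITGB8 had ranges that did not overlap.

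In siPRMT1 ethanol the replicates lay closer together and the order was another. ITGAV followed ITGB1 at 7.33, then ITGB4 at 5.30, ITGA2 at 3.64, ITGB5 at 2.41, ITGA3 at 2.38, ITGA5 at 2.31, ITGA6 at 1.85, ITGB6 at 1.20 and ITGB8 at 0.631 CPM per kb. Of the neighbours in that order, only ITGB5 with ITGA3, and ITGA3 with ITGA5, had overlapping ranges there. ITGB5, at 2.37 to 2.46, and ITGA5, at 2.23 to 2.45 CPM per kb, overlapped too, so the order among ITGB5, ITGA3 and ITGA5 is unsettled. By its mean ITGA5, the fibronectin receptor chain, stood at rank 2 in siCT ethanol and at rank 7 in siPRMT1 ethanol. The order at the bottom changed too: ITGB6 was above ITGB8 in 3 groups, while in siPRMT1 R5020 ITGB8, at 0.739 ± 0.127 CPM per kb, was above ITGB6, at 0.546 ± 0.0397 CPM per kb, in all 3 libraries.

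**Figure D1:**
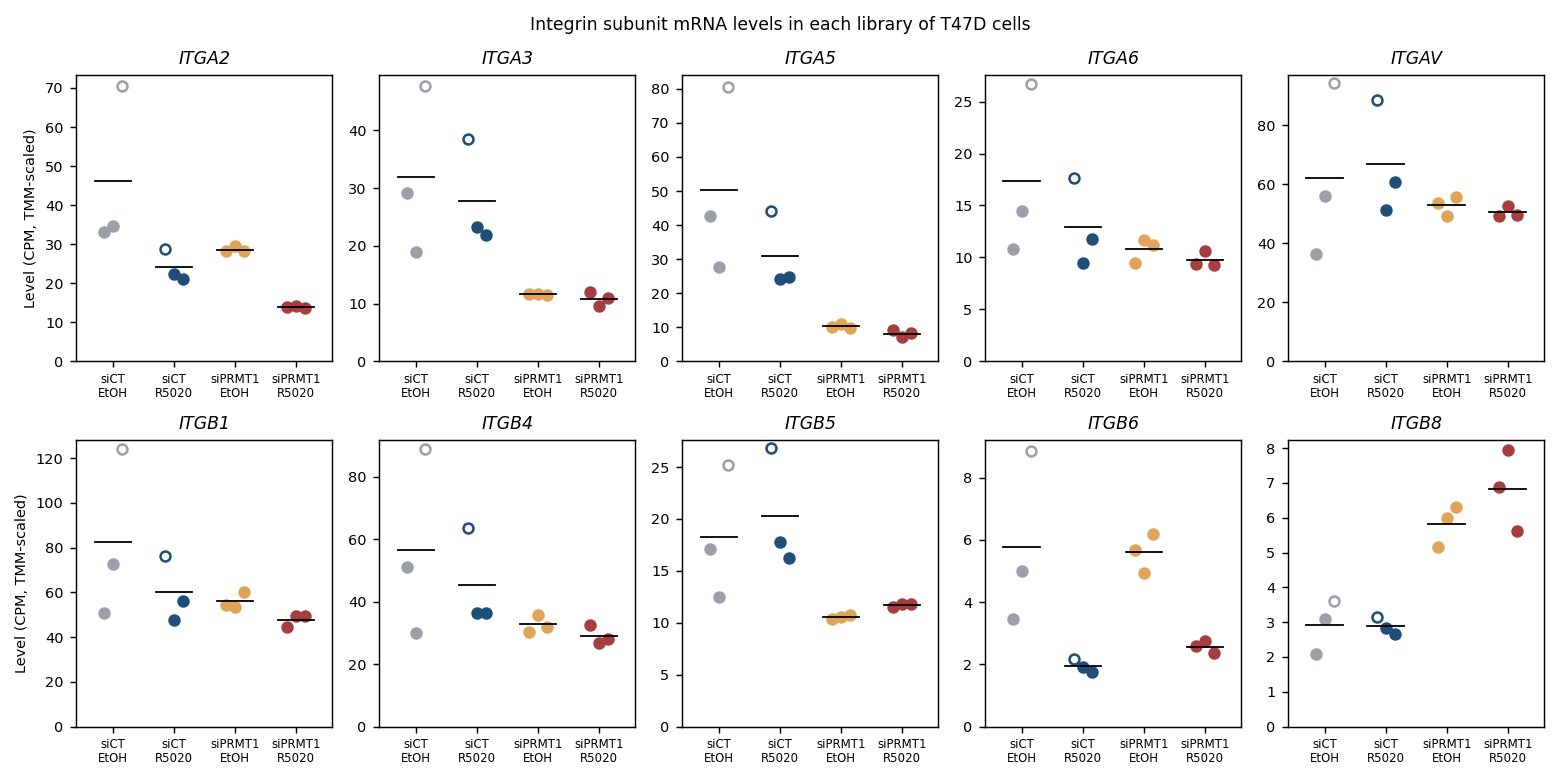
Level of each integrin mRNA (y axis, CPM scaled by TMM, from 0) in each of the 12 libraries, by group on the x axis (EtOH, ethanol). Points are libraries, bars are group means, and open points are siCT ethanol replicate 3 and siCT R5020 replicate 1, which hold the highest value of their group for all 10 genes. ITGA5 lies at or below 10.9 CPM in all siPRMT1 libraries and at or above 24.1 CPM in all siCT libraries.

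R5020 lowered 2 of the 10 genes in siCT cells and the same 2 in siPRMT1 cells: ITGA2, the collagen receptor chain, and ITGB6, the epithelial β chain that works with ITGAV. No member rose. These 2 of 10 stand beside 5.43% of all tested genes called lower by R5020 in siCT cells and 6.08% in siPRMT1 cells, and beside 7.59% and 9.30% called higher, which makes 13.0% and 15.4% in either direction. Here a gene is called when its adjusted p is under 0.05 in edgeR's quasi-likelihood test, adjusted by Benjamini-Hochberg over all tested genes.

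ITGA2 stood at 33.1, 34.7 and 70.6 CPM in siCT ethanol (replicates 1 to 3) and at 28.7, 22.3 and 21.0 CPM in siCT R5020. In siPRMT1 cells the ethanol libraries held 28.3, 29.4 and 28.1 CPM and the R5020 libraries 13.8, 14.2 and 13.5 CPM. Each R5020 library lay below each ethanol library of the same siRNA, and the siPRMT1 R5020 libraries were the lowest of all. The log2 fold change with R5020 was -0.94 ± 0.24 (SE) in siCT cells, with an adjusted p of 0.0205 in edgeR's quasi-likelihood test, and -1.04 ± 0.25 in siPRMT1 cells, with an adjusted p of 0.0099. Without the pair of siCT libraries it was -0.65 and -1.05, with adjusted p of 0.000432 and 1.25e-06 in the same test.

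ITGB6 was a rare transcript, at 3.46, 4.99 and 8.86 CPM in siCT ethanol and 2.18, 1.90 and 1.75 CPM in siCT R5020. In siPRMT1 cells the ethanol libraries held 5.68, 4.95 and 6.18 CPM and the R5020 libraries 2.58, 2.73 and 2.36 CPM. Again no R5020 library reached an ethanol library. ITGB6 fell 2.92-fold in siCT cells (log2 fold change -1.55 ± 0.28, adjusted p = 0.00219 in edgeR's quasi-likelihood test) and 2.19-fold in siPRMT1 cells (-1.13 ± 0.28, adjusted p = 0.0124). Without the pair the folds were 2.32 and 2.2, with adjusted p of 0.00133 and 0.000212 from edgeR.

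These calls rest in part on single libraries. In siCT cells, ITGA2 lost its call without siCT R5020 replicate 2 or without siCT R5020 replicate 3 (edgeR adjusted p of 0.0870 and 0.0913), and in siPRMT1 cells ITGB6 lost its call without siPRMT1 ethanol replicate 3 or without siPRMT1 R5020 replicate 3 (0.0531 and 0.0600). ITGA2 was also uncalled in siCT cells when only the 6 siCT libraries were fitted (edgeR adjusted p = 0.192).

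The start regions of ITGA2 and ITGB6 are shown because these are the genes that R5020 lowered under both siRNAs. Both stretches end upstream of the annotated transcript start and come from RefSeq on GRCh38.p14, 5′ to 3′ on the gene's strand. ITGA2 is chr5:52989102-52989325 on the plus strand, and ITGB6 is chr2:160200314-160200522 on the minus strand. Capitals mark GC boxes (GGGCGG) in ITGA2 and the hexamer bound by the progestin receptor (TGTTCT, read here as AGAACA on the other strand) in ITGB6.
ITGA2: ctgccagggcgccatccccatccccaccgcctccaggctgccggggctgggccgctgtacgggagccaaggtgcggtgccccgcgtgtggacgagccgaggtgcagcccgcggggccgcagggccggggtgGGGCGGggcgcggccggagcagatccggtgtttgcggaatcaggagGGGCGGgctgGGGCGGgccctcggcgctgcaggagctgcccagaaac
ITGB6: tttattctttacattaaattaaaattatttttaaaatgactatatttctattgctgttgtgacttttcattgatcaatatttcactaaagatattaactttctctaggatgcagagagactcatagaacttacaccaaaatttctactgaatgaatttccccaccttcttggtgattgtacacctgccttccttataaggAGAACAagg

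The ITGA2 stretch is rich in G and C, with 3 GC boxes, and the ITGB6 stretch is rich in A and T and has none. RefSeq start windows of 300 bases were matched for 8 of the 10 genes (13 windows), and ITGA3 and ITGB4 were not matched. The hexamer was found in windows of 2 of these 8 genes, ITGB6 and ITGA6, and is present in 14.8% of all 35116 windows. The full receptor element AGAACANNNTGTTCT, an inverted repeat of the hexamer, was in none of the 13 windows and is in 0.00285% of all windows. A GC box was found for 6 of the 8 genes (45.0% of all windows), and the AP-1 motif TGANTCA for ITGA5 alone (7.71%). Motifs were searched on both strands. A match describes the letters only.

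The other 8 genes were not called for R5020 in the edgeR fit of all 12 libraries with its filter on low counts. ITGA5 was called lower in siCT cells with no filter on low counts (-0.67, edgeR adjusted p = 0.0432), in limma's voom fit (-0.68, 0.0450) and without siCT ethanol replicate 2 (-0.99, edgeR 0.0373). In siPRMT1 cells ITGA5 was called in the fit of only the 6 siPRMT1 libraries (edgeR adjusted p = 0.00920) and in voom (0.0216), and ITGB1 in the former (0.00640). In the filtered fit of all libraries the log2 fold changes of the 8 in siCT cells lay between -0.70 for ITGA5 and 0.16 for ITGB5, with 95% intervals that reached from -1.39 to 0.71. In siPRMT1 cells these lay between -0.34 for ITGA5 and 0.23 for ITGB8, with intervals from -1.05 to 0.66, so changes of up to about these sizes could not be told from none. Without the pair they ran from -0.53 for ITGA5 to 0.27 for ITGAV in siCT cells and from -0.34 for ITGA5 to 0.22 for ITGB8 in siPRMT1 cells, none called. Over all 10 members the median log2 fold change was -0.36 in siCT cells and -0.16 in siPRMT1 cells, beside -0.04 and -0.00361 for all tested genes. Only ITGA2 and ITGB6 had groups that did not overlap in siCT cells, where 10.3% of all genes were lower without overlap. In siPRMT1 cells 4 members were lower without overlap (ITGA2, ITGA5, ITGB1 and ITGB6, 25.5% of all genes) and ITGB5 was higher (27.6% of all genes).

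**Figure D2:**
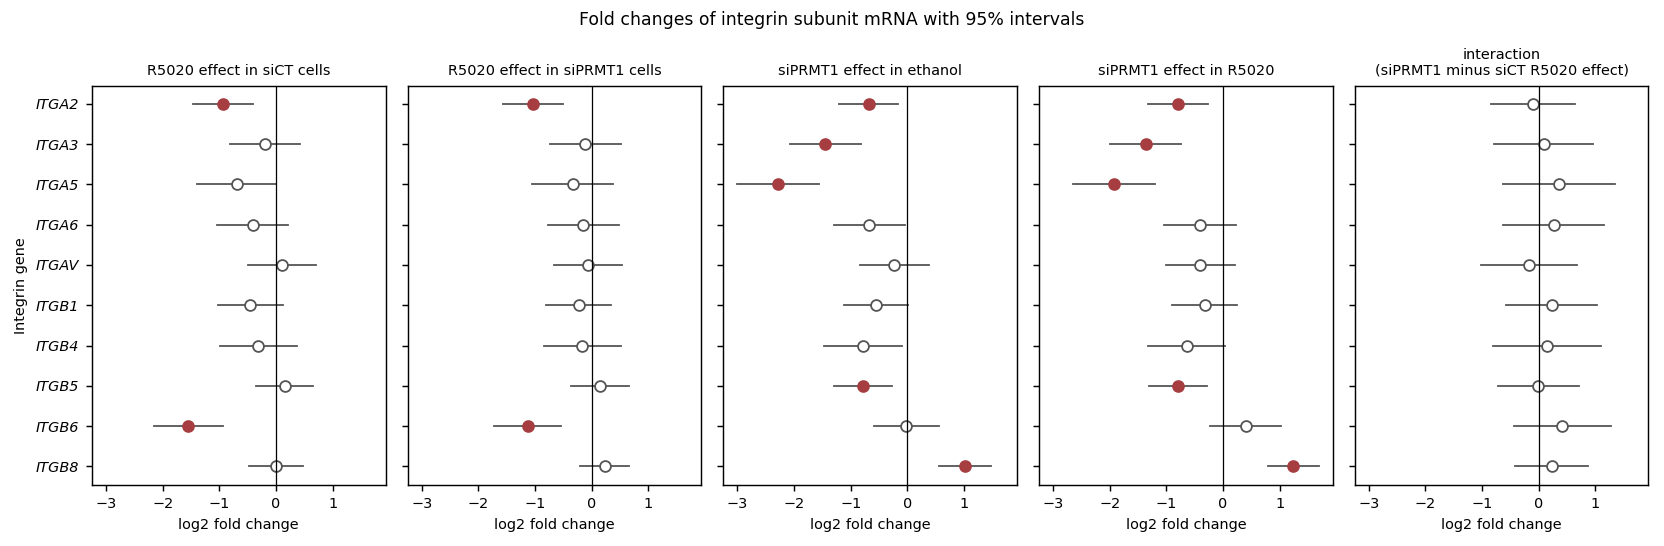
Log2 fold change (x axis) of each integrin gene (y axis) in 4 comparisons and for the difference between the R5020 effects in siPRMT1 and siCT cells. Bars are 95% intervals, and filled points have an adjusted p under 0.05. ITGA2 and ITGB6 are filled under R5020 with both siRNAs, ITGA2, ITGA3, ITGA5, ITGB5 and ITGB8 are filled for siPRMT1, and no point is filled for the difference.

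PRMT1 siRNA changed 5 of the 10 genes in ethanol and the same 5 in R5020. ITGA5, ITGA3, ITGA2 and ITGB5 fell and ITGB8 rose. In ethanol these 4 lower and 1 higher stand beside 19.2% of all tested genes called lower and 13.6% called higher (32.8% in all). In R5020 the shares of all genes were 14.2% lower and 11.5% higher (25.7% in all). The median log2 fold change over the 10 members was -0.68 in ethanol and -0.53 in R5020, beside -0.07 and -0.03 for all tested genes.

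ITGA5, which forms the classical fibronectin receptor with ITGB1, showed the largest change among the members. It stood at 42.8, 27.7 and 80.5 CPM in siCT ethanol and at 9.99, 10.9 and 9.90 CPM in siPRMT1 ethanol. With R5020 it stood at 44.0, 24.1 and 24.9 CPM in siCT and at 9.05, 7.11 and 8.22 CPM in siPRMT1. Each siPRMT1 library lay below each siCT library. ITGA5 fell 4.89-fold in ethanol (log2 fold change -2.29 ± 0.34, adjusted p = 0.000476 in edgeR's quasi-likelihood test) and 3.81-fold in R5020 (-1.93 ± 0.34, adjusted p = 0.00167). Without the pair of siCT libraries the folds were 3.40 and 2.98, and the edgeR adjusted p were 1.12e-05 and 4.00e-05.

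ITGA3, the α chain of the main laminin receptor of epithelial cells, followed the same order. It stood at 29.1, 19.0 and 47.8 CPM in siCT ethanol, at 38.5, 23.2 and 21.9 CPM in siCT R5020, at 11.7, 11.7 and 11.6 CPM in siPRMT1 ethanol and at 11.9, 9.55 and 10.9 CPM in siPRMT1 R5020. No siPRMT1 library reached a siCT library. Its log2 fold change was -1.45 ± 0.29 in ethanol and -1.37 ± 0.29 in R5020 (edgeR adjusted p of 0.00306 and 0.00518), and -1.03 and -1.05 without the pair. ITGA6, the other laminin-binding α chain, had log2 fold changes of -0.67 (95% interval -1.30 to -0.05) and -0.41 (-1.04 to 0.22), called in neither comparison in the filtered fit of all libraries, and of -0.22 and -0.12 without the pair. In ethanol it was called with no filter on low counts (-0.63, edgeR adjusted p = 0.0322) and without siCT ethanol replicate 1 (-0.93, 0.0290).

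For ITGA2, whose levels are given above, the log2 fold change with siPRMT1 was -0.68 ± 0.24 in ethanol and -0.79 ± 0.25 in R5020 (edgeR adjusted p of 0.0448 and 0.0316). Without the pair it was -0.23 and -0.63, called, with adjusted p of 0.0446 and 0.000271. The call in ethanol was lost under most other settings: with DESeq2 size factors (edgeR adjusted p = 0.0562), with library totals alone (0.122), with the replicate block (0.0764), with only the 6 ethanol libraries (0.123) and in limma's voom fit (0.0901). It was also lost on leaving out any of 9 single libraries, namely siCT ethanol replicate 3, siCT R5020 replicates 2 and 3 and all 6 siPRMT1 libraries, with edgeR adjusted p of 0.0512 to 0.350. The last of these, without siCT ethanol replicate 3, left a log2 fold change of -0.18. In R5020 the call was lost without siCT R5020 replicate 1 or 2 or any of the 3 siPRMT1 R5020 libraries (0.0543 to 0.104).

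ITGB5, the ITGAV partner that binds vitronectin, stood at 17.1, 12.4 and 25.2 CPM in siCT ethanol and at 10.3, 10.5 and 10.8 CPM in siPRMT1 ethanol. With R5020 it stood at 26.8, 17.8 and 16.2 CPM in siCT and at 11.5, 11.8 and 11.8 CPM in siPRMT1. The siPRMT1 groups were the lower in both media and did not overlap with siCT. Its log2 fold change was -0.78 ± 0.24 in ethanol and -0.79 ± 0.24 in R5020 (edgeR adjusted p of 0.0229 and 0.0267), and -0.48 and -0.53 without the pair. In ethanol the call was lost with library totals alone (edgeR adjusted p = 0.0577) and with only the 6 ethanol libraries (0.0595). Of the fits that leave out 1 library, it was lost without siCT ethanol replicate 3 or any siPRMT1 ethanol library in ethanol (0.0646 to 0.122), and without siCT R5020 replicate 1 or any siPRMT1 R5020 library in R5020 (0.0747 to 0.113).

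ITGB8 was the only member that rose with PRMT1 siRNA. It stood at 2.07, 3.10 and 3.61 CPM in siCT ethanol and at 5.16, 5.99 and 6.31 CPM in siPRMT1 ethanol. With R5020 it stood at 3.15, 2.84 and 2.65 CPM in siCT and at 6.88, 7.94 and 5.61 CPM in siPRMT1. Each siPRMT1 library lay above each siCT library. The rise was 2.01-fold in ethanol (log2 fold change 1.01 ± 0.21, adjusted p = 0.00389 in edgeR's quasi-likelihood test) and 2.36-fold in R5020 (1.24 ± 0.21, adjusted p = 0.00149), and 2.27-fold and 2.49-fold without the pair. These are 66 to 232 reads per library, so counting error adds to the spread.

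The remaining β chains and ITGAV were not called for PRMT1 siRNA in the filtered edgeR fit of all 12 libraries. ITGB4, the hemidesmosome chain, stood at 30.0 to 88.8 CPM in siCT ethanol and 30.4 to 35.8 CPM in siPRMT1 ethanol, with a log2 fold change of -0.79 (95% interval -1.47 to -0.10, edgeR adjusted p = 0.0722). In R5020 it stood at 36.4 to 63.6 CPM in siCT and 26.9 to 32.4 CPM in siPRMT1, lower without overlap (-0.64, adjusted p = 0.149). Without the pair it was -0.30 and -0.31, not called. ITGB4 was called in ethanol with no filter on low counts (edgeR adjusted p = 0.0103), without siCT ethanol replicate 2 (-1.10, 0.00647) and without siCT R5020 replicate 1 (0.0441). In R5020 it was called with no filter (0.0440), with only the 6 R5020 libraries (0.0408), without siCT ethanol replicate 3 (0.0351) and in limma's voom fit (0.0109). ITGB1 had log2 fold changes of -0.55 (-1.12 to 0.02) in ethanol and -0.33 (-0.90 to 0.24) in R5020, or -0.12 and -0.11 without the pair, and was called once, in ethanol without siCT ethanol replicate 1 (-0.81, edgeR adjusted p = 0.0239). The pseudogene ITGB1P1 held 17.2% to 23.5% of the reads that it and ITGB1 received together, so ITGB1 levels are uncertain to that degree.

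ITGAV stood at 36.2 to 94.2 CPM in siCT ethanol and at 49.4 to 55.6 CPM in siPRMT1 ethanol, a range inside the other. Its log2 fold change was -0.23 (95% interval -0.83 to 0.37) in ethanol and -0.40 (-1.01 to 0.20) in R5020, and without the pair it was 0.21 and -0.13. ITGB6 likewise went from -0.02 (-0.59 to 0.56) to 0.42 in ethanol without the pair, with no call in either fit. In R5020 ITGB6 was higher in all 3 siPRMT1 libraries than in the siCT libraries (log2 fold change 0.40, adjusted p = 0.326 in edgeR's test, and 0.49 without the pair), and voom called it there (0.43, limma adjusted p = 0.0373). In ethanol 4 members were lower and 1 higher without overlap, beside 23.8% and 20.9% of all genes. In R5020 5 were lower and 2 higher, beside 26.0% and 25.6% of all genes.

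**Figure D3:**
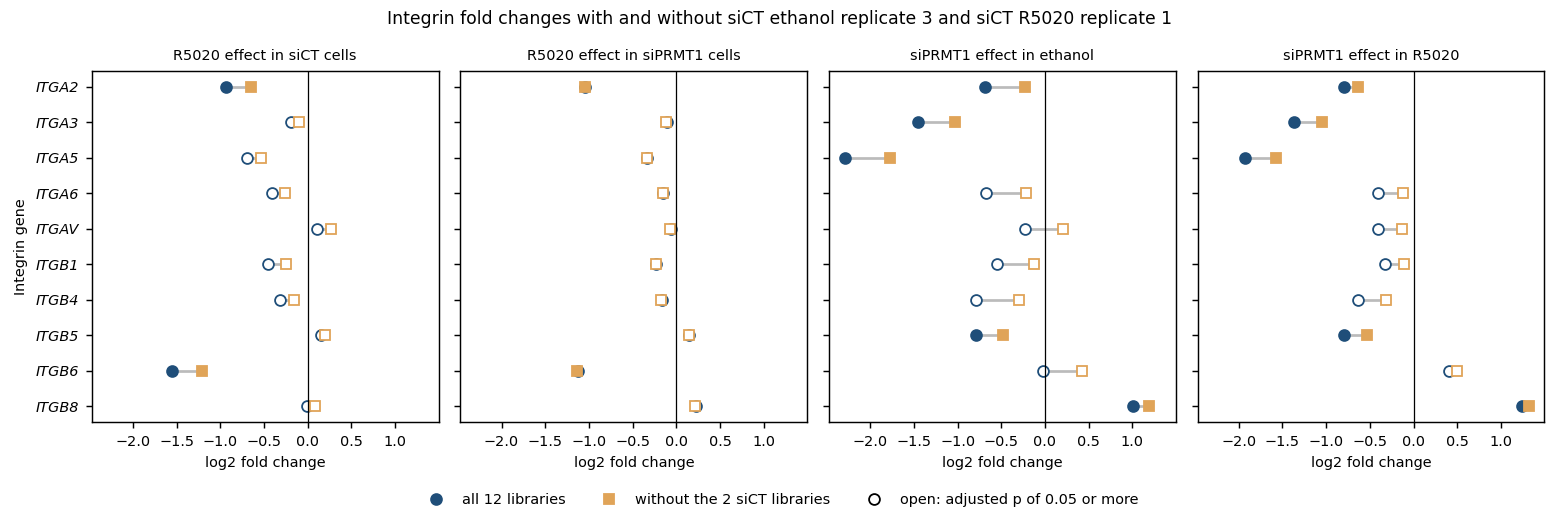
Log2 fold change (x axis) of each integrin gene (y axis) in 4 comparisons, from all 12 libraries (circles) and from the 10 libraries left without siCT ethanol replicate 3 and siCT R5020 replicate 1 (squares). Filled symbols have an adjusted p under 0.05. The same genes are filled in both fits, and ITGAV and ITGB6 cross zero for siPRMT1 in ethanol, from -0.23 to 0.21 and from -0.02 to 0.42.

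Without the pair, more genes passed the test in the whole table: 19.9% for R5020 in siCT cells, 29.1% for R5020 in siPRMT1 cells, 44.5% for siPRMT1 in ethanol and 38.9% for siPRMT1 in R5020. The integrin counts were 2, 2, 5 and 5, with the same genes as in all 12 libraries. The basal and luminal marker sums given above also differed between siCT and siPRMT1, and their part in the integrin results was not tested.

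Ratios between chains within a library compare the members without the library scaling, and are given as descriptions with no test. Their change between libraries carries the information, since a ratio of CPM also holds the ratio of gene lengths. The log2 ratio of ITGA5 to ITGB1 was -0.24, -1.39 and -0.62 in siCT ethanol and -0.79, -0.99 and -1.18 in siCT R5020. It was -2.45, -2.29 and -2.61 in siPRMT1 ethanol and -2.30, -2.80 and -2.59 in siPRMT1 R5020. Fibronectin receptor α chain thus stood lower against the shared β chain in each of the 6 siPRMT1 libraries than in any siCT library. By contrast the log2 ratio of ITGA6 to ITGB4 overlapped between all groups, from -2.24 to -1.05 in siCT ethanol and from -1.69 to -1.52 in siPRMT1 ethanol.

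Shares of the ITGAV partners differed between the groups. Of the summed per-kb level of ITGB5, ITGB6 and ITGB8, ITGB5 took 80.3%, 67.0% and 71.6% in siCT ethanol and 57.2%, 58.5% and 55.2% in siPRMT1 ethanol. ITGB8 took 4.61%, 7.91% and 4.86% in siCT ethanol, 13.5%, 15.8% and 15.3% in siPRMT1 ethanol, and 19.0%, 20.8% and 16% in siPRMT1 R5020. ITGB6 took 15.1%, 25.0% and 23.5% in siCT ethanol but 6.70%, 8.48% and 8.54% in siCT R5020. Its share was 29.3%, 25.7% and 29.5% in siPRMT1 ethanol and 14.0%, 14.1% and 13.2% in siPRMT1 R5020.

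The log2 ratio of ITGB8 to ITGB6, the pair of chains linked to latent TGF-β, separated all 4 groups. It joins the ITGB8 rise with siPRMT1 and the ITGB6 fall with R5020 given above, so it is no separate result. Other ratios, such as ITGA2 to ITGB1, overlapped between groups. The ITGB8 to ITGB6 ratio was -0.74, -0.69 and -1.30 in siCT ethanol and -0.14, 0.27 and 0.03 in siPRMT1 ethanol. It was 0.53, 0.58 and 0.60 in siCT R5020 and 1.41, 1.54 and 1.25 in siPRMT1 R5020. No group's range met another's on this CPM scale. Of the pair that stood apart, siCT ethanol replicate 3 was the lowest of its group and siCT R5020 replicate 1 lay close to the other libraries of its group. The log2 ratio of ITGB6 to ITGAV was -3.39, -3.49 and -3.41 in siCT ethanol, where siCT ethanol replicate 3 did not stand apart, and -5.34, -4.75 and -5.12 in siCT R5020.

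**Figure D4:**
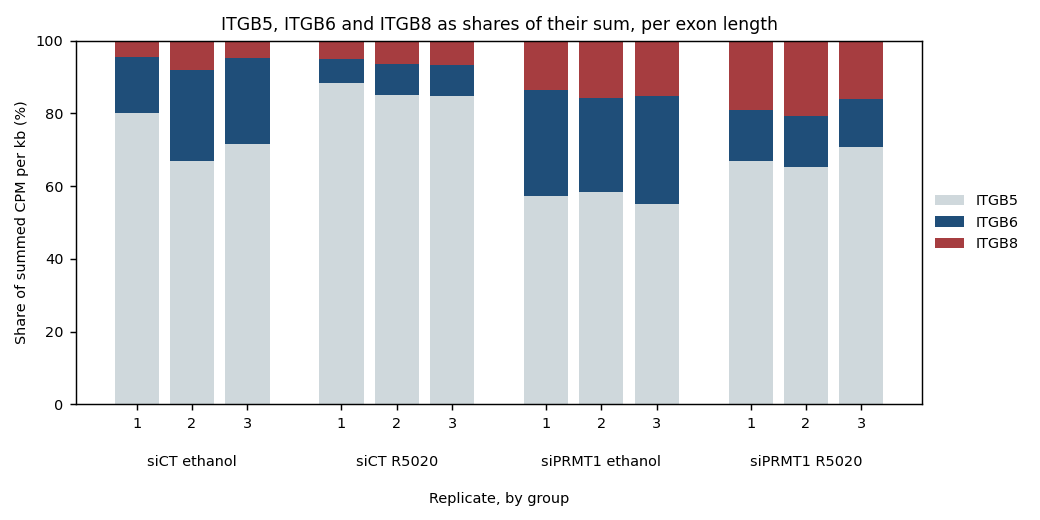
Share (y axis, percent) of the summed CPM per kb of ITGB5, ITGB6 and ITGB8 taken by each gene, in each replicate of the 4 groups (x axis). ITGB6 holds 6.70% to 8.54% in siCT R5020 and 13.2% to 14.1% in siPRMT1 R5020, below its share with ethanol, and ITGB8 holds 13.5% to 20.8% in the siPRMT1 libraries against 4.61% to 7.91% in the siCT libraries.

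Whether PRMT1 siRNA altered the response to R5020 was asked by the difference between the R5020 effects in siPRMT1 and siCT cells. None of the 10 genes passed that test in edgeR, in DESeq2 or in limma, and none had an unadjusted p under 0.05 in edgeR. Over all genes 14 of 17727 passed (0.0790%), and 720 (4.06%) had an unadjusted p under 0.05. The differences lay between -0.17 for ITGAV and 0.42 for ITGB6 on the log2 scale, with 95% intervals from -1.03 to 1.35, so the R5020 effects could differ by that much and not be seen. For ITGB6 the difference was 0.42 ± 0.39 with all libraries and 0.07 without the pair, and for ITGA2 it was -0.11 ± 0.34 and -0.40. Without the pair the 10 differences ran from -0.40 for ITGA2 to 0.19 for ITGA5.

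The other integrin genes were few. Of 16 further subunits, 7 were tested (ITGA2B, ITGA7, ITGA10, ITGAE, ITGAL, ITGB2 and ITGB7), and 9 were too low: ITGA4 and ITGA8 had no read in any library, and ITGA1, ITGA9, ITGA11, ITGAD, ITGAM, ITGAX and ITGB3 had 1 to 54 reads over all 12 libraries. ITGAL, the α chain of the leukocyte receptor LFA-1, was low, at 1.21 to 1.94 CPM in siCT ethanol. It had 15, 11 and 15 reads in siCT R5020 and 6, 9 and 11 in siPRMT1 R5020, so its folds are uncertain. It fell with R5020 in siCT cells (log2 fold change -1.78, edgeR adjusted p = 0.00149) and in siPRMT1 cells (-1.39, 0.0132), and with siPRMT1 in ethanol (-1.01, 0.0171). ITGA10, a collagen-binding α chain, fell with siPRMT1 in R5020 (-1.20, edgeR adjusted p = 0.0325), and so did ITGA2B. ITGA2B stood at 0.242 to 0.441 CPM in siCT R5020 and 0.0729 to 0.158 CPM in siPRMT1 R5020. The latter were 3, 2 and 5 reads, so its fold is uncertain too. Leaving out 1 library gave 0 falls in some runs. For R5020 in siPRMT1 cells these were without siPRMT1 ethanol replicate 2 or siPRMT1 R5020 replicate 1. Of all genes, 662 and 647 were called lower there, against 1077 with all libraries. For siPRMT1 in ethanol they were without siCT ethanol replicate 1 or siPRMT1 ethanol replicate 1 or 3. Lower calls of all genes were then 2950, 2157 and 2094, against 3399. For siPRMT1 in R5020 they were without siPRMT1 R5020 replicate 1 or 2 (1561 and 1291, against 2513). The falls with all libraries stand beside 5.43% and 6.08% of all genes called lower for R5020 in siCT and siPRMT1 cells, and 19.2% and 14.2% for siPRMT1 in ethanol and R5020. Without the pair, 2 genes of the list fell with R5020 under each siRNA instead of 1 and ITGA10 rose in siCT cells (1.35, edgeR adjusted p = 0.000319). Of all genes, 19.9% in siCT and 29.1% in siPRMT1 cells were called for R5020 in that fit, in either direction. ITGAL was then at -2.04, -1.40 and -1.03 in the comparisons named above, and ITGA10 at -0.79 and ITGA2B at -1.73 for siPRMT1 in R5020.

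Adaptors and kinases that link integrin tails to actin were all tested, 26 of 26. With R5020, 5 rose and 1 fell in siCT cells, and 6 rose and 2 fell in siPRMT1 cells, beside 7.59% and 5.43% of all genes in siCT and 9.30% and 6.08% in siPRMT1 cells. TLN2, a talin that activates integrins, rose by a log2 fold change of 1.28 in siCT cells (edgeR adjusted p = 0.000552). In siPRMT1 cells TLN2 was at 1.14. The tail-binding adaptor TNS3 rose by 0.77 and 1.69, the scaffold BCAR1 by 1.05 and 1.57, and the actin crosslinker ACTN1 by 0.73 and 1.00. With siPRMT1 none rose and 11 fell in ethanol, and 1 rose and 9 fell in R5020, beside 13.6% of all genes higher and 19.2% lower in ethanol and 11.5% and 14.2% in R5020. FLNA, which binds β tails and actin, fell by 1.85 in ethanol and by 1.5 in R5020, and TNS4 by 1.61 in R5020, all on the log2 scale. Without the pair TLN2 was at 1.43 and 1.13 and TNS3 at 0.78 and 1.69 for R5020. BCAR1 was then at 1.05 and 1.56 and ACTN1 at 0.71 and 1.00. For siPRMT1 FLNA was at -1.79 and -1.49 and TNS4 at -1.03 and -1.69, in ethanol and R5020. LIMS2, a partner of integrin-linked kinase, was at 0.383 to 1.15 CPM in siCT and 0.0272 to 0.109 CPM in siPRMT1, a handful of reads, so no fold is given. The count of 11 was 7 on leaving out any of the 3 siPRMT1 ethanol libraries. Of all genes, 2157, 2260 and 2094 were called lower in these runs (replicates 1 to 3), against 3399 with all libraries. The count of 9 was 3 without siCT R5020 replicate 2 or siPRMT1 R5020 replicate 2 (1859 and 1291 of all genes lower, against 2513). It was 4 without siPRMT1 R5020 replicate 1 (1561 of all genes) and 5 without siPRMT1 R5020 replicate 3 (1454 of all genes). The counts without the pair were 7 and 1, 10 and 2, 4 and 13, and 1 and 11, higher and lower in the order of the comparisons above. In that fit 19.9%, 29.1%, 44.5% and 38.9% of all genes were called in either direction. The median of the list was 0.14, 0.26, -0.39 and -0.32 with all libraries.

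Of 4 hemidesmosome partners of ITGB4, 3 were tested, and COL17A1 had 6 reads in all. DST, which encodes a plakin that ties ITGB4 to keratin, fell with R5020 by 1.52 and 1.81 on the log2 scale in siCT and siPRMT1 cells (edgeR adjusted p of 0.000638 and 0.000143). CD151, a tetraspanin that binds the laminin receptors of ITGA3 and ITGA6, fell with siPRMT1 by 1.59 in ethanol and 1.36 in R5020 (0.00310 and 0.00841). Its level was 54.2 to 150 CPM in siCT and 29.1 to 42.9 CPM in siPRMT1, without overlap. Without the pair DST was at -1.43 and -1.82 for R5020 and CD151 at -1.10 and -0.99 for siPRMT1. These falls stand beside 5.43% and 6.08% of all genes called lower for R5020 in siCT and siPRMT1 cells, and 19.2% and 14.2% for siPRMT1 in ethanol and R5020. The counts of this list were the same without the pair, where 19.9%, 29.1%, 44.5% and 38.9% of all genes were called in either direction. With siPRMT1 2 fell in ethanol without siCT ethanol replicate 2, where 4365 of all genes were called lower, against 3399 with all libraries. In R5020 2 fell without siCT ethanol replicate 3 (3618 of all genes, against 2513).

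Of 16 genes for integrin ligands 9 were tested, and 8 of these fell with siPRMT1 in ethanol and 4 in R5020, beside 19.2% and 14.2% of all genes called lower. Without the pair 9 and 8 fell, where 44.5% and 38.9% of all genes were called in either direction. The count in R5020 was 1 without siCT R5020 replicate 1 or siPRMT1 R5020 replicate 2. It was 7 without siCT ethanol replicate 2 and 8 without siCT ethanol replicate 3. Of all genes, 1786, 1291, 3040 and 3618 were called lower in these runs, against 2513 with all libraries. FN1, which encodes fibronectin, the ligand of the ITGA5 receptor, stood at 49.1 to 88.0 CPM in siCT ethanol and at 22.1 to 23.3 CPM in siPRMT1 ethanol. It fell by 1.48 in ethanol and 1.46 in R5020 on the log2 scale (edgeR adjusted p of 0.000537 and 0.000759). LAMB3, a chain of the main laminin under epithelia, fell by 2.04 in ethanol and by 1.86 in R5020. Without the pair FN1 was at -1.15 and -1.23 and LAMB3 at -1.5 and -1.25. LAMA3, the α chain of the same laminin, rose with R5020, by 1.26 in siCT and 1.74 in siPRMT1 cells (0.0128 and 0.00137), and was the only ligand called for R5020 with all libraries (1.43 and 1.74 without the pair). Without the pair 1 rose and 2 fell in siCT cells and 2 rose and 2 fell in siPRMT1 cells, where 19.9% and 29.1% of all genes were called. The median of the 9 was -1.19 for siPRMT1 in ethanol and -0.93 in R5020.

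Latent TGF-β was followed by 6 genes, for TGF-β chains and for proteins that carry the latent form, of which 5 were tested. The list was not limited to ligands of the ITGB6 and ITGB8 receptors, and binding to them was not measured. TGFB2 and TGFB3 fell with R5020 in both cell states, TGFB2 by 2.06 in siCT and 1.30 in siPRMT1 cells and TGFB3 by 1.03 and 1.09 on the log2 scale. With siPRMT1, TGFB1, TGFB3 and LTBP3, a latent TGF-β binding protein, fell in ethanol by 2.14, 0.98 and 0.96, and TGFB1 and TGFB3 fell in R5020 by 1.62 and 1.03. TGFB1 was at 0.590 to 1.91 CPM in siCT and at 0.190 to 0.420 CPM in siPRMT1. Without the pair TGFB2 was at -1.85 and -1.30 and TGFB3 at -0.91 and -1.09 for R5020, and for siPRMT1 TGFB1 was at -1.67 and -1.69, TGFB3 at -0.59 and -0.77 and LTBP3 at -0.52 in ethanol. The falls with all libraries stand beside 5.43% and 6.08% of all genes called lower for R5020 in siCT and siPRMT1 cells. For siPRMT1 these shares were 19.2% in ethanol and 14.2% in R5020. Without the pair 3 fell with R5020 under each siRNA, and with siPRMT1 1 rose and 3 fell in ethanol and 2 rose and 2 fell in R5020. Of all genes, 19.9% and 29.1% were then called for R5020 and 44.5% and 38.9% for siPRMT1, in either direction. For R5020 1 fell in siCT cells without siCT R5020 replicate 2 or 3 and in siPRMT1 cells without siPRMT1 R5020 replicate 2. Of all genes, 528 and 579 were called lower in these siCT runs, against 963, and 659 in the siPRMT1 run, against 1077. For siPRMT1 in R5020 1 fell without siCT R5020 replicate 2 or siPRMT1 R5020 replicate 3, and 0 fell without siPRMT1 R5020 replicate 2. Lower calls of all genes were 1859, 1454 and 1291 in these runs, against 2513. The median of the list was -0.48 and -0.20 for R5020, and -0.96 and -0.63 for siPRMT1. No gene of these lists passed the test of the difference between R5020 effects with all libraries. Without the pair 2 adaptor genes did, beside 0.779% of all genes: TNS3 (0.91, edgeR adjusted p = 0.0181) and VCL (0.55, 0.0360).

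ITGA5 and ITGB8 had the smallest p among the members in edgeR's test of any difference among the 4 groups. The genes with the pattern most like theirs were found by the root mean square difference of their centred log2 levels over the 12 libraries. For ITGA5 they were SERPINF1 at 0.17, ORAI3 at 0.18 and SLC2A6 at 0.20, against a median of 1.19 over 10059 genes. For ITGB8 they were C9orf72 at 0.17, NUPL1 at 0.18 and IRGQ at 0.18, against a median of 0.65. The 12 points share their libraries, the pair that stood apart included.

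The authors' deposited table of comparisons called ITGB6 alone for R5020 in siCT cells (log2 fold change -1.30), where it called 6.61% of its genes, and gave ITGA2 at -0.80 with an adjusted p of 0.0880. For R5020 in siPRMT1 cells the authors' deposited table called 4 members lower, ITGA2, ITGB6, ITGA5 and ITGB1, with log2 fold changes of -0.33 for ITGA5 and -0.23 for ITGB1. The authors' deposited table called 33.6% of its genes in that comparison, against 15.4% here. For siPRMT1 it called 4 members in ethanol, the 5 named here without ITGA2 (-0.57, adjusted p = 0.126 in the authors' deposited table), and 19.9% of its genes. In R5020 the authors' deposited table called 6, the same 5 and ITGB4 (-0.58, adjusted p = 0.0205), and 30.7% of its genes.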

How the data were processed

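TRIzol was used to extract RNA and the Lexogen SENSE mRNA-Seq kit V2 to prepare sequencing libraries, per the labels' protocols. The authors deposited read counts by gene symbol for each library, whole numbers with no normalization, and a table of their own comparisons with log2 fold changes and adjusted p-values, per the file headers. The build hg19 and the tools HTSeq 0.9.1, DESeq2 and Bowtie2 2.3.2.2 are listed in the submitters' processing notes. Their roles and settings, the annotation release and the strand setting were not given in the sources used here, so reads of an antisense gene cannot be told apart from those of its partner. The authors' log2 values were used only to set their calls beside those made here. There were 0 columns of other samples.

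Counts were fitted with edgeR 4.0.16 in R 4.3.3: filterByExpr, TMM scaling, a mean per group over all 12 libraries, glmQLFit and glmQLFTest, with Benjamini-Hochberg adjustment over 17727 genes. Calls needed an adjusted p under 0.05. Standard errors and 95% intervals come from that fit. Levels are CPM on TMM-scaled library sizes, and per-kb levels use merged exon lengths of GENCODE on GRCh38, which is not the authors' annotation. The code was tested on simulated data. Alternatives were DESeq2 size factors, library totals alone, no filter, the replicate number as a block, only the 6 libraries compared, DESeq2 1.42.0, limma 3.58.1 voom with quality weights, each library left out, and the pair of siCT libraries left out.

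All members were named. Of each other list, the 3 called genes with the smallest p were named in each comparison (1 such gene is not reported here), and of genes alike in pattern the 3 nearest, with a mean level of 5 CPM or more required, after adding 0.1 CPM before log2. The members and lists were chosen with earlier results of these data known. Start regions come from RefSeq. No 2 libraries of a group agreed within sampling noise. Counts carry no molecular identifiers, so their counting error is a lower limit of the technical error.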

Additional observations from a re-analysis of the deposited data

How the results depend on the processing

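The calls of ITGA3, ITGA5 and ITGB8 for PRMT1 siRNA, of ITGB6 for R5020 in siCT cells and of ITGA2 for R5020 in siPRMT1 cells held under each alternative run, those that leave out a library included. With only the 6 libraries of a comparison, 1 member was called for R5020 in siCT cells, 4 for R5020 in siPRMT1 cells and 3 for siPRMT1 in ethanol, and with library totals alone 3 for siPRMT1 in ethanol. Leaving out 1 library in turn gave 1 to 3 members for R5020 in siCT cells, 1 to 2 for R5020 in siPRMT1 cells, 3 to 7 for siPRMT1 in ethanol, 3 to 6 for siPRMT1 in R5020 and 0 for the difference. Of the 17727 genes, these runs called 1539 to 3015, 1813 to 3778, 3444 to 7753, 2314 to 6722 and 0 to 32, in the same order. The member counts were lowest without siCT R5020 replicate 2 or 3 for R5020 in siCT cells and without siPRMT1 ethanol replicate 3 or siPRMT1 R5020 replicate 3 for R5020 in siPRMT1 cells. For siPRMT1 they were lowest without siCT ethanol replicate 3 or any siPRMT1 ethanol library in ethanol, and without siCT R5020 replicate 1 or any siPRMT1 R5020 library in R5020. The 7 came without siCT ethanol replicate 1. The cause was not tested.

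No member that passed its test changed sign. Uncalled members did, 61 times, and the lowest adjusted p of these was 0.0635, in edgeR's test. Some lay near zero with all libraries and some did not. With all libraries ITGA6 was at -0.41 and ITGB4 at -0.31 for R5020 in siCT cells, and ITGB6 at 0.42 for the difference between R5020 effects. Leaving out siCT ethanol replicate 3 alone reversed 6 of the differences. For R5020 in siCT cells, ITGB8 was at 0.0181 with no filter, 0.00440 with the replicate block, 0.000292 with 6 libraries, 0.00420 in DESeq2 and 0.15 in voom. For R5020 in siPRMT1 cells, ITGB5 was at -0.0224 with library totals alone. For siPRMT1 in ethanol, ITGB6 was at 0.00597 with DESeq2 size factors, 0.28 with library totals, 0.0277 with no filter, 0.0110 with the replicate block, 0.0210 in DESeq2 and 0.36 in voom, and ITGAV at 0.0812 with library totals and 0.14 in voom. For the difference between R5020 effects, library totals put ITGA3 at -0.13, ITGB1 at -0.00278 and ITGB4 at -0.0809, and voom put ITGB5 at 0.0355 and ITGB8 at -0.000213. Leaving out 1 library moved R5020 in siCT cells from -0.49 to 0.24 for ITGA3, -0.69 to 0.0652 for ITGA6, -0.16 to 0.57 for ITGAV, -0.63 to 0.20 for ITGB4, -0.0880 to 0.49 for ITGB5 and -0.21 to 0.19 for ITGB8. It moved siPRMT1 in ethanol from -0.51 to 0.26 for ITGAV and -0.29 to 0.47 for ITGB6. It moved the difference from -0.61 to 0.0839 for ITGA2, -0.39 to 0.38 for ITGA3, -0.22 to 0.70 for ITGA5, -0.25 to 0.54 for ITGA6, -0.67 to 0.10 for ITGAV, -0.26 to 0.48 for ITGB1, -0.40 to 0.46 for ITGB4, -0.37 to 0.24 for ITGB5 and -0.0743 to 0.69 for ITGB6.

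Whether the replicate numbers pair the samples could not be decided. Deviations of same-numbered libraries from their group means correlated above 0.1 in 1 of 12 pairs of libraries (-0.69 to 0.29). The lowest values, -0.69 and -0.54, were replicates 3 and 1 of siCT ethanol with siCT R5020. These hold the libraries that stood apart, which weigh on means of 3 libraries. With the replicate block 2, 2, 4, 5 and 0 members were called, against 2, 2, 5, 5 and 0 without it. Of all genes, 1890, 2278, 4936, 3845 and 0 were called with the block, against 2308, 2725, 5806, 4559 and 14, in the same order. Library totals alone moved the median of all genes by -0.17 for R5020 in siPRMT1 cells, 0.18 for siPRMT1 in ethanol and -0.14 for the difference. They split the calls of all genes into 897 higher and 1167 lower for R5020 in siPRMT1 cells, against 1648 and 1077, and into 744 and 1685 for siPRMT1 in R5020, against 2046 and 2513. Over all genes the calls were 898, 7813 and 3324 with 6 libraries, against 2308 for R5020 in siCT cells, 2725 for R5020 in siPRMT1 cells and 5806 for siPRMT1 in ethanol. Voom called 8179 for R5020 in siPRMT1 cells and 9866 for siPRMT1 in R5020 (4559 in edgeR), and library totals 3021 for siPRMT1 in ethanol and 2429 in R5020. For the difference they were 3 with library totals, 29 with no filter, 87 in DESeq2, 65 in voom and 140 without the pair.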
